A study of Mus musculus with 24 samples.

Results

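Arntl, Clock, Npas2, Nr1d1, Nr1d2 and Rora encode the activators of the circadian clock and the nuclear receptors that control them. Rows were taken by gene name from the 10 deposited tables. All 6 genes were listed in every table, out of 15741 genes listed in any of them.

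The livers came from 24 mice in 8 groups of 3. Wild-type (WT) animals and animals lacking the kinase GCN2 in the whole body (KO; its gene is Eif2ak4) were fed a diet with leucine (Control) or without it (LeuD). Each of these 4 conditions was sampled at circadian time CT03, early in the subjective day, and at CT15, early in the subjective night. Every group, the WT Control mice included, had first lived on a 12-h light-dark schedule with 2 days of the Control diet. The switch to LeuD came at the onset of the dark phase, lights went off for good 24 h later, and the livers were frozen after 8 days of constant darkness. The sources used here do not give the age, sex and strain of the mice or the construction of the deletion. The study asked how the loss of GCN2 and the LeuD diet bear on differences between the times of day in the liver.

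BMAL1 (from Arntl) pairs with CLOCK, or with its paralog NPAS2, and the pair binds E-box sequences to switch on the Per and Cry repressors, the REV-ERB genes Nr1d1 and Nr1d2 and many output genes. PER and CRY proteins then inhibit the pair, which closes the main loop. In a second loop the REV-ERB proteins repress, and the ROR proteins (among them RORα from Rora) activate, genes that carry a ROR response element, Arntl foremost among them. In liver this second loop also ties the clock to lipid and glucose metabolism.

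The sites that join these genes can be read in the windows from 250 bases before to 50 bases after each annotated start (RefSeq, GRCm38.p6). For the 6 genes 9 such windows were found, with each gene represented. The windows of Npas2 and Rora held none of the searched sequences. The stretches below show the ROR and REV-ERB type sequence in the genes that REV-ERB is known to repress, the shorter core in Clock and Nr1d2, and the E-box variant in Nr1d1. Each is printed 5′ to 3′ along the gene's strand, with the searched letters in capitals. A match is a description of the letters and not a measured site.
Arntl, chr7:113207530-113207559, plus strand: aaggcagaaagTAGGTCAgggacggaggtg
Arntl, chr7:113207494-113207523, plus strand: tggtcggaaagTAGGTTAgtggtgcgacat
Nfil3, chr13:52981033-52981062, minus strand: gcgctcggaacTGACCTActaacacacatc
Nr1d2, chr14:18239165-18239194, minus strand: attggaagaagAGGTCAggaccgctcgttg
Clock, chr5:76303603-76303632, minus strand: gctttggcctcTGACCTgacagatgacaga
Nr1d1, chr11:98775387-98775416, minus strand: gcacagatctcAACGTGccggctgctggaa

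Searches ran over both strands, so the capitals of Nfil3, Clock and Nr1d1 are the motif as it reads on the other strand. The ROR element TAGGTCA was found in 2.61% of 32851 windows of all genes and, among the 6, in Arntl alone, 30 bases after a start. The looser TAGGTNA, which includes TAGGTCA, was in 8.29% of all windows and also in no other of the 6 genes. The core AGGTCA, part of TAGGTCA, was in 16.3% of all windows and in those of Arntl, Clock and Nr1d2. The E-box CACGTG was in 7.15% of all windows and in 0 of the 9, and CACGTT was in 4.68% and in that of Nr1d1, 28 bases before its start. A missing match says only that these letters are not in this window.

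Levels are normalized counts, that is, reads divided by a size factor that puts the 24 libraries on 1 scale. Libraries held 34137121 to 44884200 reads in listed genes. All 5 hepatocyte markers were listed, at a summed 81208 to 180937.5 RPM (reads scaled to library size). Eif2ak4 had 288.2 to 349.9 normalized counts in the 12 WT and 244 to 464 in the 12 KO libraries. Whole-gene reads do not check the knockout label, since a lost exon would not show in them. All 10 pancreas acinar markers were listed too. They summed to 11919.7 RPM in KO LeuD CT03 replicate 1, 6363.6 in KO LeuD CT15 replicate 3 and 3448.7 in WT LeuD CT15 replicate 1, against 0.5 to 540.4 in the other 21. In bulk liver, fewer cells of a type and less RNA per cell cannot be told apart. Each KO Control group held a library with the highest value of all 24 in some of the 6 genes. KO Control CT03 replicate 1 had the highest Nr1d1 and Nr1d2 of all 24 libraries, and KO Control CT15 replicate 1 the highest Clock and Rora. Results are given with and without such libraries where the call depends on them. Both KO Control libraries were singled out by their values of these genes. Over all genes, replicate 3 was the farthest from its mates in KO Control CT03.

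**Figure D1:**
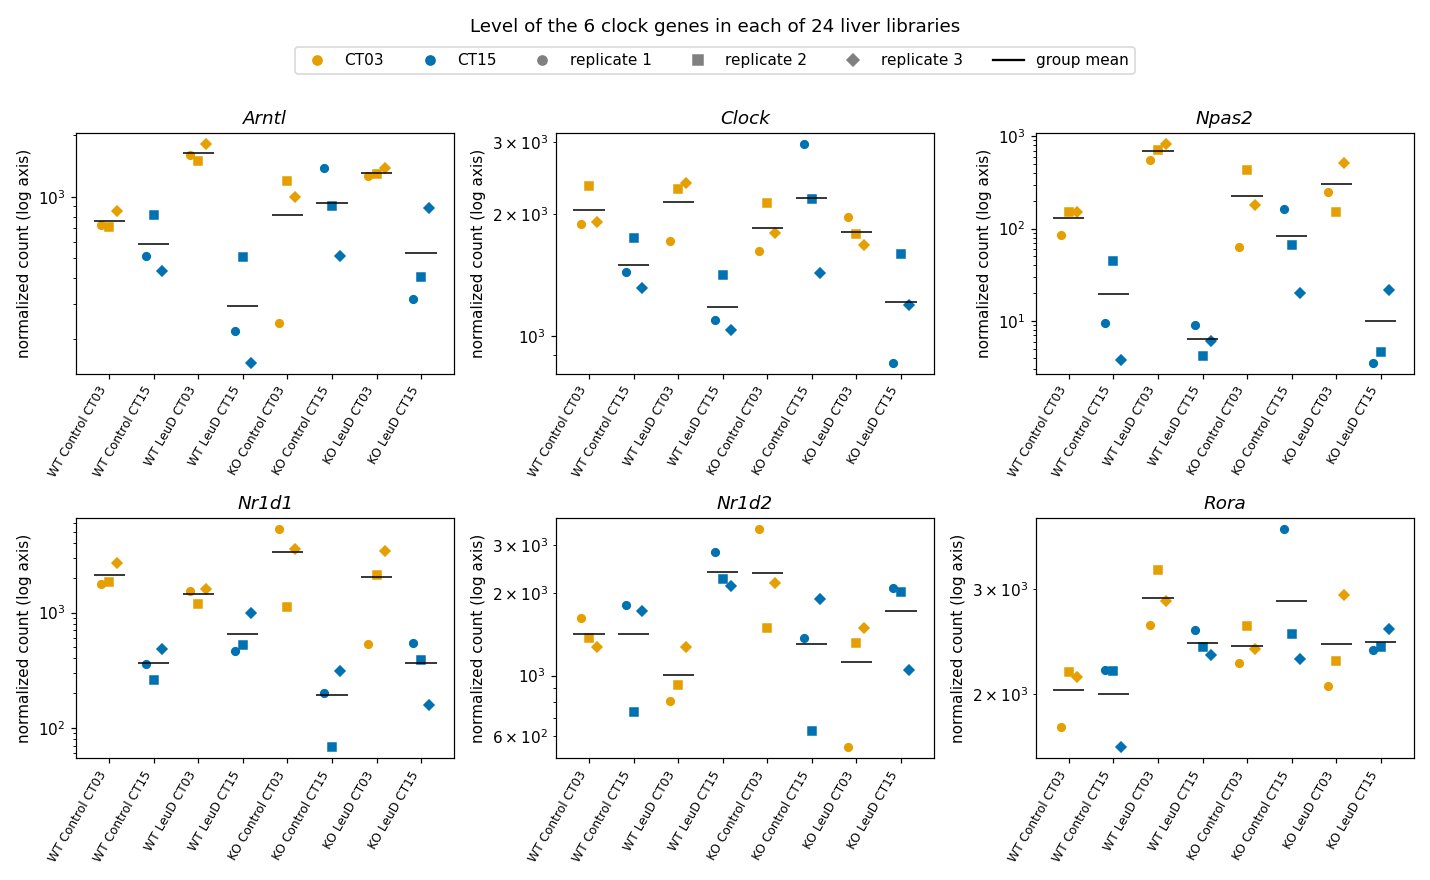
Normalized counts (log axis) of the 6 genes in each of the 24 libraries, with 3 mice per group, symbols for the replicate number, colours for the circadian time and a line at the group mean. Npas2 spans 3.54 to 816.8 over the libraries and Rora 1634 to 3774.

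Arntl, the gene of the obligate partner BMAL1, was lower at CT15 than at CT03 on the LeuD diet. WT LeuD mice had 1612, 1499 and 1808 normalized counts at CT03 (replicates 1, 2 and 3) and 219.7, 506 and 154 at CT15. The 2 groups did not overlap, and the change of -2.66 ± 0.36 (log2 ± SE) passed the test (adjusted p = 0.00405, limma). KO LeuD mice had 1269, 1290 and 1388 at CT03 and 315.3, 406.4 and 878.1 at CT15. The highest CT15 value belongs to the library with 6363.6 RPM of acinar transcripts. Groups were again apart, and the difference of -1.45 ± 0.34 did not pass in limma (adjusted p = 0.102). The authors' deposited table lists it at an adjusted p of 0.00554. Without the library with 6363.6 RPM limma gave -1.88 (adjusted p = 0.0247). Without both KO libraries high in acinar transcripts it gave -1.90 (adjusted p = 0.0999).

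On the Control diet the 2 times of day overlapped for Arntl in both genotypes. WT Control mice had 725.3, 710.8 and 851 at CT03 and 511.8, 813 and 431.8 at CT15, a difference of -0.43 ± 0.22 (adjusted p = 0.369). KO Control mice ranged more widely, with 240.8, 1190 and 1001 at CT03 and 1384, 906.1 and 512.8 at CT15. The low CT03 value and the high CT15 value are those of the 2 libraries noted above. The KO Control difference of 0.38 ± 0.64 (adjusted p = 0.851) became -0.34 without CT03 replicate 1. By group mean, WT LeuD CT03 stood highest at 1640 ± 157 (SD, n = 3) and apart from KO LeuD CT03 at 1316 ± 63.6, and WT LeuD CT15 lowest at 293.2 ± 187. The other 6 of the 7 neighbouring pairs in that order overlapped.

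Clock, the histone acetyltransferase partner of BMAL1, moved over a narrower range, from 862.1 to 2960 over the 24 libraries. In WT LeuD mice it fell from 1718, 2305 and 2380 at CT03 to 1096, 1414 and 1039 at CT15. These groups did not overlap (-0.85 ± 0.16, adjusted p = 0.0151). The call was lost without CT03 replicate 2 (adjusted p = 0.0721) or replicate 3 (0.0525). Clock also stood lower at CT15, with no overlap, in WT Control mice, at 1890, 2334 and 1912 against 1440, 1739 and 1312 (-0.45 ± 0.14, adjusted p = 0.159). KO LeuD mice had 1958, 1780 and 1676 at CT03 and 862.1, 1595 and 1191 at CT15 (-0.62 ± 0.22, adjusted p = 0.238). The KO Control groups overlapped, at 1624, 2127 and 1796 against 2960, 2175 and 1432. Their difference was 0.18 ± 0.26 (adjusted p = 0.827) and -0.06 without CT15 replicate 1. In the order of the 8 group means, which ran from 2189 ± 764 in KO Control CT15 to 1183 ± 202 in WT LeuD CT15, all 7 neighbouring pairs overlapped.

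Npas2, the paralog that can take the place of CLOCK, had the widest span of the 6 genes, with its highest library 230.5 times its lowest. WT LeuD mice had 549.7, 704.7 and 816.8 at CT03, the highest values in the study, and 9.11, 4.16 and 6.09 at CT15. The CT15 values rest on 20 reads in the 3 libraries together (exact Poisson 95% interval 12.2 to 30.9, counting error only), against 2094 at CT03. The fall of -6.57 ± 0.28 passed the test (adjusted p = 1.8e-05) and held without any single library. Changes this low in reads are understated on the log2(normalized count + 1) scale.

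KO LeuD mice had 246.8, 152 and 511.1 at CT03 and 3.54, 4.63 and 21.8 at CT15, the last from 27 reads in all (17.8 to 39.3). Npas2 was the gene among the 6 that passed in these mice (-5.01 ± 0.67, adjusted p = 0.0206). Its groups were far apart, but the call was lost without 4 of the 6 libraries in turn (CT03 replicates 1 and 2, CT15 replicates 1 and 2; adjusted p of 0.0529 to 0.0873). Without both libraries high in acinar transcripts the fall was -5.79 (adjusted p = 0.0892). WT Control mice had 85.9, 151.9 and 151.2 at CT03 and 9.51, 44.9 and 3.78 at CT15. These groups were apart as well, and the difference of -3.26 ± 0.75 did not pass (adjusted p = 0.0854). The authors' deposited table lists it at an adjusted p of 0.00098, and without CT15 replicate 2 limma gave -4.16 (adjusted p = 0.0344). KO Control mice, with 63.5, 431.2 and 181.2 at CT03 and 164.9, 65.9 and 20.3 at CT15, overlapped (-1.48 ± 0.89, adjusted p = 0.546). WT LeuD CT03 at 690.4 ± 134 stood apart from the next group mean, KO LeuD CT03 at 303.3 ± 186, and the other 6 neighbouring pairs overlapped.

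Nr1d1, the gene of the repressor REV-ERBα, was lower at CT15 in every condition by its fitted difference, and passed in both WT comparisons. WT Control mice had 1778, 1841 and 2702 at CT03 and 359.6, 259.7 and 486.6 at CT15. The groups were far apart (-2.53 ± 0.25, adjusted p = 0.00718), although the call was lost without CT03 replicate 2 (adjusted p = 0.0621). WT LeuD mice had 1553, 1194 and 1587 at CT03 and 459.7, 520.5 and 990.7 at CT15. This fall of -1.21 ± 0.27 (adjusted p = 0.027) was lost without any of 5 of the 6 libraries (all 3 at CT03, and CT15 replicates 1 and 2; adjusted p of 0.0591 to 0.0844). CT15 replicate 1 is the WT library with 3448.7 RPM of acinar transcripts, and without it the difference was -1.0 (adjusted p = 0.0669). In 1 limma fit of all 24 libraries neither WT difference passed (adjusted p = 0.0596 on Control and 0.326 on LeuD). Both KO differences passed in that fit (adjusted p = 0.00211 on Control and 0.0315 on LeuD).

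KO mice spread more widely in Nr1d1. KO Control mice had 5324, 1128 and 3530 at CT03 and 199, 68.1 and 311.8 at CT15. The lowest and the highest value of the study are both in this comparison, and the groups were apart (-4.09 ± 0.71). This largest difference of Nr1d1 did not pass in limma (adjusted p = 0.127), and the authors' deposited table lists it at an adjusted p of 0.000114. KO LeuD mice had 538.7, 2132 and 3412 at CT03 and 544.4, 386.9 and 156.3 at CT15. Here CT03 replicate 1, the library highest in acinar transcripts, fell among the CT15 values (-2.30 ± 0.69, adjusted p = 0.17, and 0.0497 in the authors' deposited table). By group mean, the 4 CT03 groups (3327 ± 2106 in KO Control to 1445 ± 217 in WT LeuD) stood above the 4 CT15 groups (657 ± 291 in WT LeuD to 192.9 ± 122 in KO Control), and WT LeuD CT03 and CT15 were the neighbours that did not overlap.

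Reads of Nr1d1 cannot all be told from those of its neighbour. Nr1d1 and Thra, which encodes a thyroid hormone receptor, lie on opposite strands and share 263 of the 2721 exon bases of Nr1d1 (9.7%, GENCODE M21, GRCm38). Whether counting used strand was not stated. Thra ranged from 375.6 to 1050 over the 24 libraries. It was lower at CT15 as well, by -0.76 ± 0.08 over the 4 conditions (adjusted p = 1.06e-06). How much of either difference shared reads carry was not tested.

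Nr1d2, the gene of the second REV-ERB protein, took a different course from Nr1d1 in WT LeuD mice. It rose there from 805, 926.9 and 1273 at CT03 to 2816, 2241 and 2117 at CT15. The groups did not overlap (1.27 ± 0.18, adjusted p = 0.00458). The call held without any single library and was lost in 1 fit of all 24 libraries (1.27, adjusted p = 0.0982). In KO LeuD mice the values were 548.8, 1312 and 1494 at CT03 and 2092, 2012 and 1045 at CT15. They overlapped through CT15 replicate 3, at 1045, a library high in acinar transcripts, as is CT03 replicate 1 at 548.8 (0.67 ± 0.41, adjusted p = 0.459).

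On the Control diet Nr1d2 showed no such rise. WT Control mice had 1624, 1370 and 1274 at CT03 and 1814, 735.1 and 1715 at CT15. The difference of -0.10 ± 0.32 (adjusted p = 0.899) turned to 0.32 without CT15 replicate 2. KO Control mice had 3426, 1486 and 2172 at CT03 and 1371, 629.6 and 1898 at CT15, with overlap (-0.92 ± 0.45, adjusted p = 0.458). All 7 neighbouring pairs in the order of group means, from 2392 ± 373 in WT LeuD CT15 to 1002 ± 243 in WT LeuD CT03, overlapped.

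Rora, the gene of the activator that competes with REV-ERB for the same sites, varied least, with a highest library 2.31 times its lowest. WT LeuD mice had 2613, 3221 and 2866 at CT03 and 2565, 2400 and 2329 at CT15. The groups were just apart (-0.25 ± 0.10, adjusted p = 0.173). In the other 3 conditions the times overlapped. WT Control mice had 1767, 2182 and 2142 against 2196, 2189 and 1634, and KO LeuD mice 2065, 2274 and 2932 against 2367, 2397 and 2566. KO Control mice had 2253, 2596 and 2384 at CT03 and 3774, 2522 and 2295 at CT15. The lowest group means of Rora were those of WT Control mice, at 2030 ± 229 and 2006 ± 323, and the former was apart from the next, KO Control CT03 at 2411 ± 173.

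**Figure D2:**
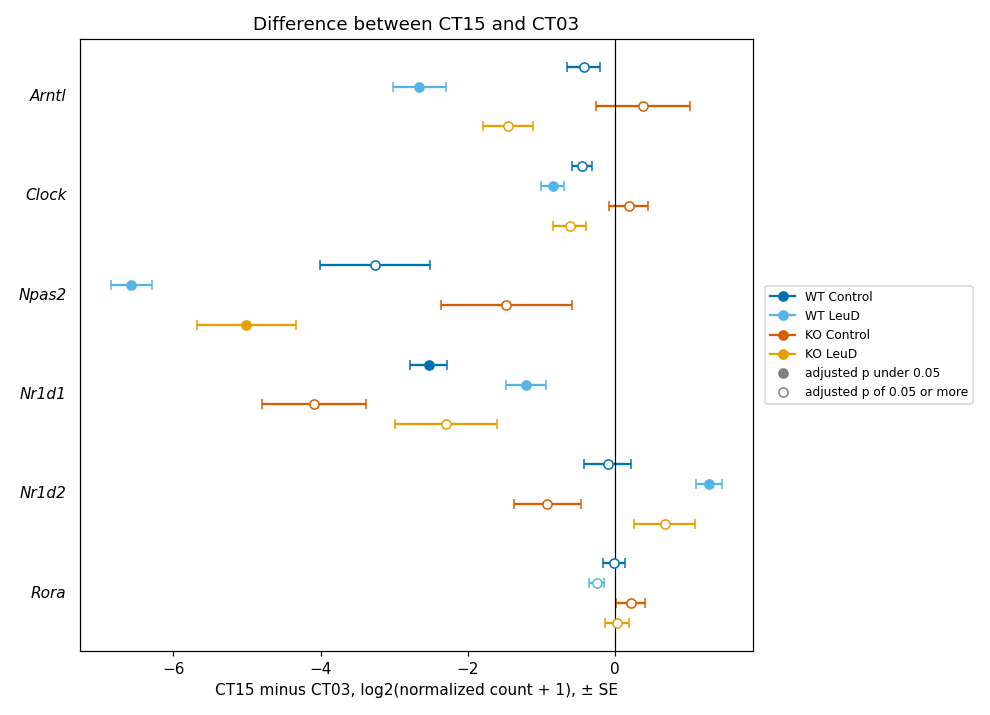
Difference between CT15 and CT03 (log2, ± SE) for each gene in the 4 conditions, from limma on 6 libraries each. Filled points passed an adjusted p of 0.05, and 5 of the 7 filled points belong to WT LeuD.

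Counted by condition, 5 of the 6 genes passed for time in WT LeuD, where 9.61% of all genes tested did. In WT Control 1 of 6 passed (Nr1d1), against 1.42% of all genes, and in KO LeuD 1 of 6 (Npas2), against 0.805%. None of the 6 passed in KO Control, where 0.0407% of all genes did. There 1 of the 6 (Nr1d1) had an unadjusted p under 0.05, as had 1819 of all 14745 genes. On the recovered reads DESeq2 called 1 of 6 there (Nr1d1) and edgeR 0.

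Averaged over the 4 conditions in 1 fit of all 24 libraries, 4 of the 6 genes were lower at CT15, while 25.1% of all genes passed. Npas2 fell by 4.08 ± 0.41 on the log2 scale (adjusted p = 7.93e-07) and Nr1d1 fell by 2.53 ± 0.32 (adjusted p = 1.15e-05). Arntl fell by 1.04 ± 0.25 (adjusted p = 0.00493) and Clock fell by 0.43 ± 0.11 (adjusted p = 0.00878). These 4 calls held when any single library was left out. The 3 activator genes thus shared a direction with Nr1d1, the gene of their repressor. Nr1d2 differed by 0.23 ± 0.21 (adjusted p = 0.463) and Rora by -0.01 ± 0.08 (adjusted p = 0.958). The median size of the difference was 0.73 over the 6 genes and 0.17 over all genes.

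Arntl and Npas2 were higher on the LeuD diet in WT mice at CT03, a comparison that shares its mice with the time comparisons above. Arntl went from 762.3 ± 77.1 (SD, n = 3) on Control to 1640 ± 157 on LeuD, with no overlap. Its rise of 1.10 ± 0.11 passed the test (adjusted p = 0.00518). Npas2 went from 129.7 ± 37.9 to 690.4 ± 134, a rise of 2.43 ± 0.24 (adjusted p = 0.0049). Both calls held without any single library and were lost in 1 fit of all 24 libraries, at the same differences (adjusted p = 0.437 for Arntl and 0.249 for Npas2). Erythroid markers in the same mice summed to 229.7 to 460.2 RPM on Control and 121.5 to 150.4 on LeuD, with no overlap, and hepatocyte markers to 92766.2 to 104338.6 and 95903.2 to 108877.2, with overlap. In KO mice at CT03 both lists were apart between the diets, the erythroid one at 276.1 to 380.7 on Control and 82.8 to 128.5 on LeuD and the hepatocyte one at 109176.9 to 120162.9 and 141147.1 to 147859.3. The part of these cell markers in the diet results was not tested. Clock, which can pair with BMAL1 as NPAS2 does, was at 2045 ± 251 and 2134 ± 363 (adjusted p = 0.89).

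Among the receptors at CT03 in WT mice, Rora was higher on LeuD in every mouse (2030 ± 229 against 2900 ± 305) by 0.51 ± 0.12, which did not pass in limma (adjusted p = 0.061). The authors' deposited table lists that difference at an adjusted p of 0.00537. Nr1d1 was lower on LeuD in every mouse, at 1445 ± 217 against 2107 ± 516 (-0.53 ± 0.18, adjusted p = 0.167). Nr1d2 was too, at 1002 ± 243 against 1423 ± 181 (-0.53 ± 0.17, adjusted p = 0.156). The repressor genes therefore stood on the opposite side from Arntl, Npas2 and Rora, without passing. In all, 2 of the 6 genes passed in this comparison and 2.24% of all genes did.

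At CT15 none of the 6 passed for diet in WT mice, where 0.186% of all genes did. Of the 6, 3 had an unadjusted p under 0.05, as had 1954 of all 15073 genes. DESeq2 and edgeR called none of the 6 either. Arntl was at 585.5 ± 201 on Control and 293.2 ± 187 on LeuD (-1.13 ± 0.42, adjusted p = 0.317), the reverse of the direction at CT03. Nr1d1 and Nr1d2 were also on the other side, at 368.7 ± 114 against 657 ± 291 (0.79 ± 0.32, adjusted p = 0.35) and at 1421 ± 596 against 2392 ± 373 (0.85 ± 0.32, adjusted p = 0.322). The 2 diets overlapped for Arntl and Nr1d1 and did not for Nr1d2. Clock was at 1497 ± 219 and 1183 ± 202, and Rora at 2006 ± 323 and 2431 ± 121, again higher in every LeuD mouse.

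**Figure D3:**
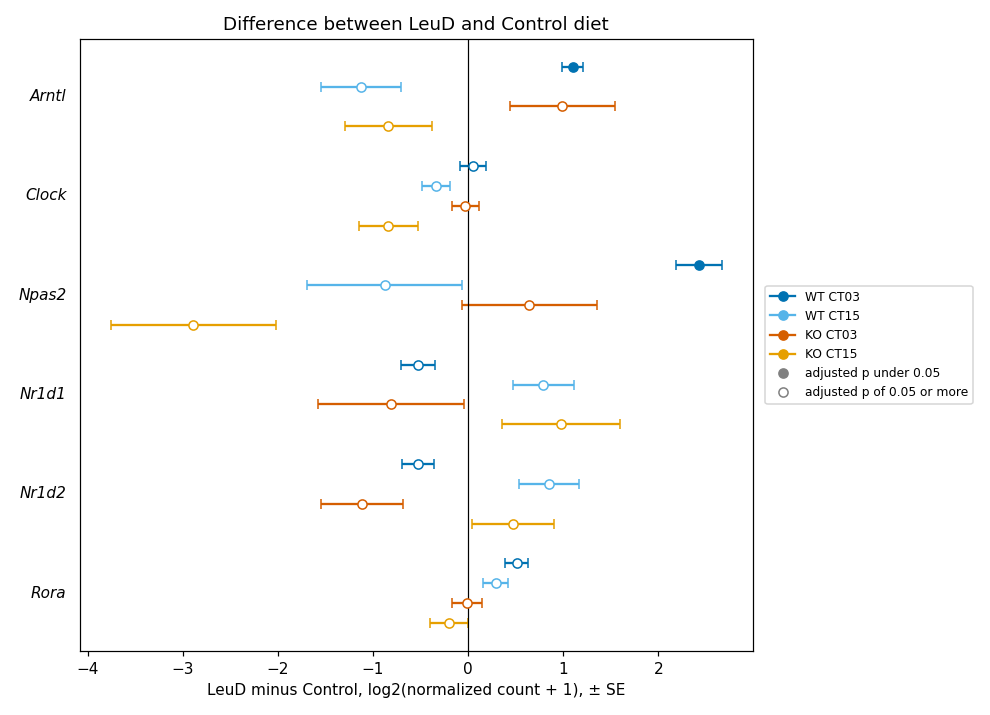
Difference between the LeuD and the Control diet (log2, ± SE) for each gene by genotype and time, from limma on 6 libraries each. The 2 filled points, Arntl and Npas2 in WT mice at CT03, passed an adjusted p of 0.05.

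In KO mice none of the 6 genes passed for diet at either time, and 0.0% of all genes did at CT03 and 0.0202% at CT15. DESeq2 on the recovered reads called 0 of the 6 at CT03 and 1 at CT15, and edgeR 0 at both. In limma 1 and 2 of the 6 had an unadjusted p under 0.05, as had 2173 of 14888 and 2376 of 14834 genes. The count of all genes called depended on the fit. For WT mice at CT03 it was 330 in limma on 6 libraries, 961 with DESeq2 and 24 in 1 fit of all 24 libraries. For KO mice it was 0, 520 and 628 at CT03 and 3, 698 and 1219 at CT15. At CT03 Arntl was 810.4 ± 502 on Control and 1316 ± 63.6 on LeuD, with all 3 LeuD mice above the Control mice (0.99 ± 0.55, adjusted p = 0.432). Leaving out KO Control CT03 replicate 1, the library with 240.8, brought that difference down to 0.27. At CT15 Arntl was 934.3 ± 436 and 533.2 ± 302 (-0.84 ± 0.46, adjusted p = 0.41). Npas2 at CT15 was 83.7 ± 73.9 on Control and 3.54 to 21.8 on LeuD, and the groups overlapped between 20.3 and 21.8 (-2.89 ± 0.87, adjusted p = 0.185). The authors' deposited table gives an adjusted p of 0.00513 for it.

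Whether the time difference itself depended on diet was tested as an interaction over all 24 libraries. None of the 6 genes passed in limma, where 0.0% of all genes did. DESeq2 called 1 of the 6 (Npas2) and edgeR 0. In limma 5 of the 6 had an unadjusted p under 0.05, as had 1081 of all 14474 genes. The difference of time effects, LeuD minus Control, was -3.42 ± 0.82 for Npas2 and -2.03 ± 0.50 for Arntl (adjusted p = 0.253 for both). For Nr1d2 it was 1.48 ± 0.43 (adjusted p = 0.321) and for Nr1d1 1.56 ± 0.64 (adjusted p = 0.585), the opposite sign. Clock was at -0.60 ± 0.23 (adjusted p = 0.541) and Rora at -0.21 ± 0.16 (adjusted p = 0.826). Within each genotype the signs were the same for all 6 genes, with Arntl at -2.23 ± 0.49 in WT mice and -1.83 ± 0.80 in KO mice and Nr1d2 at 1.37 ± 0.41 and 1.59 ± 0.68. The median size was 1.52 over the 6 genes and 0.16 over all genes.

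The genotypes were compared within each diet and time, and none of 24 such differences (6 genes in 4 comparisons) passed. The lowest adjusted p was 0.269, and 3 of the 24 had an unadjusted p under 0.05. DESeq2 and edgeR also called none. Over all genes 0.0136% passed on Control at CT03, 0.0798% on Control at CT15, 0.0484% on LeuD at CT03 and 1.89% on LeuD at CT15. In the same order, 1200 of 14674, 825 of 15031, 1984 of 14474 and 2699 of 14474 genes had an unadjusted p under 0.05. Groups of the 2 genotypes did not overlap for 1, 1, 2 and 1 of the 6 genes in these comparisons, again in that order. How many of all genes were apart in this way was not counted. The 2 activator genes that rose on LeuD in WT mice at CT03 were lower in KO than in WT LeuD mice with no overlap. Npas2 differed there by -1.34 ± 0.40 (adjusted p = 0.269) and Arntl by -0.31 ± 0.11 (adjusted p = 0.319). The rise by which these genes were picked comes from the same WT LeuD mice. The diet difference at CT03, KO minus WT, was -0.11 ± 0.62 for Arntl (adjusted p = 0.949). For Npas2 it was -1.79 ± 0.83 (adjusted p = 0.386). With single libraries left out, the genotype difference of Npas2 on LeuD at CT03 ran from -1.81 to -0.94. Its adjusted p ran from 0.00722, without KO LeuD CT03 replicate 3, to 0.721. Without the acinar-high library, KO LeuD CT03 replicate 1, it was -1.29 (adjusted p = 0.576). Rora on Control was higher in every KO mouse than in any WT mouse at CT03 (0.25 ± 0.12, adjusted p = 0.638) and at CT15 (0.49 ± 0.22, adjusted p = 0.791). Nr1d2 on LeuD at CT15 was lower in every KO mouse, by -0.53 ± 0.26 (adjusted p = 0.308). Without the acinar-high library of each of these groups (WT replicate 1, KO replicate 3) it was -0.09 (adjusted p = 0.889), and without KO replicate 3 alone -0.21.

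At CT15 the groups overlapped between genotypes for Nr1d1 and Arntl on both diets, and no difference passed. Nr1d1 differed from WT by -1.14 ± 0.54 on Control (adjusted p = 0.791) and by -0.95 ± 0.45 on LeuD (adjusted p = 0.301). Arntl differed by 0.61 ± 0.39 on Control (adjusted p = 0.791) and 0.90 ± 0.48 on LeuD (adjusted p = 0.347). Without the 2 acinar-high libraries the LeuD values were -0.64 for Nr1d1 (adjusted p = 0.545) and 0.36 for Arntl (adjusted p = 0.857). Npas2 on Control differed by 2.23 ± 0.99 (adjusted p = 0.791). The difference of time effects between genotypes, KO minus WT over both diets, was -1.32 ± 0.64 for Nr1d1 and 1.02 ± 0.50 for Arntl (adjusted p = 0.672 and 0.679). None of the 6 genes passed this test, where 0.0345% of all genes did, and DESeq2 and edgeR called none of the 6. None of the 6 had an unadjusted p under 0.05, and 1093 of all 14474 genes had.

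Some of these genes differed widely between mice of the same group. In KO Control CT03 the SD of log2(normalized count + 1) over 3 mice was 1.37 for Npas2, 1.26 for Arntl and 1.16 for Nr1d1, against a median of 0.19 over 11948 genes with a mean of at least 50. Only 1.3% to 1.8% of those genes had an SD as large as these. Clock and Rora in the same mice had an SD of 0.20 and 0.10, near that median. Nr1d2 had 0.60, and 6.8% of genes had an SD as large. In this group the genes with wide spread were thus Npas2, Arntl and the REV-ERB genes, and not all 6. The SD of Arntl includes replicate 1, at 240.8 normalized counts. Clock spread more in KO Control CT15, at 0.53 against a median of 0.24, and in KO LeuD CT15, at 0.44 against 0.21.

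In WT Control CT03 mice the same genes had an SD of 0.47 (Npas2), 0.14 (Arntl) and 0.34 (Nr1d1), against a median of 0.15. Wide spread was not confined to KO mice. Npas2 had its largest SD in WT Control CT15, at 1.66, where 0.5% of genes had an SD as large. It had 0.29 to 0.49 in the other WT groups and 0.88 to 1.48 in the KO groups. Arntl had 0.88 in WT LeuD CT15, against 0.72 in KO Control CT15 and 0.77 in KO LeuD CT15. Nr1d1 had an SD of 0.23 to 0.59 in the 4 WT groups and of 0.93 to 1.38 in the 4 KO groups, which do not overlap. Over all genes the median SD was also larger in KO, at 0.19 to 0.24 against 0.14 to 0.16 in WT. Arntl was the reverse of wide in KO LeuD CT03, at 0.07, while Nr1d1 in those mice reached 1.38. Those mice include the library highest in acinar transcripts, which also had the lowest Nr1d1 of the 3, and the part of such transcripts in this spread was not tested.

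**Figure D4:**
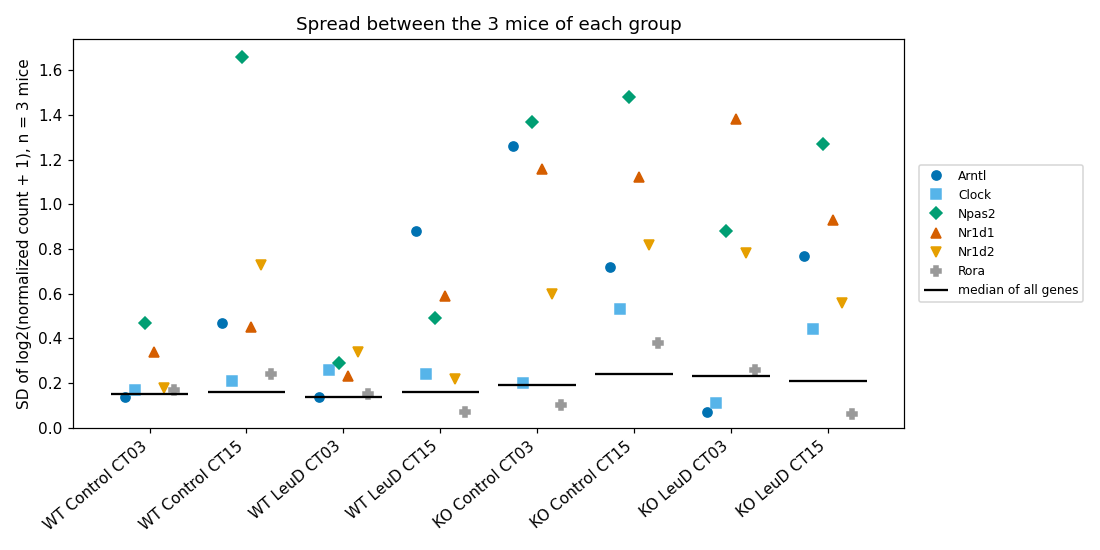
Standard deviation of log2(normalized count + 1) over the 3 mice of each group for the 6 genes, with a line at the median of all genes with a mean of at least 50. Nr1d1 lies at 0.93 to 1.38 in the KO groups and at 0.23 to 0.59 in the WT groups.

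Set against each other in the same library, Nr1d1 and Arntl give a value that differs between times, diets and mice of a group. The log2 quotient of Nr1d1 to Arntl was 1.29, 1.37 and 1.67 in WT Control mice at CT03 and -0.51, -1.65 and 0.17 at CT15. WT LeuD mice turned this order around, at -0.05, -0.33 and -0.19 at CT03 and 1.06, 0.04 and 2.69 at CT15. In both cases the 2 times did not overlap. Gene length enters each value alike, so that the quotient compares libraries and not the 2 genes.

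KO mice on Control spanned 4.47, -0.08 and 1.82 at CT03 and -2.80, -3.73 and -0.72 at CT15. Both times were apart, and CT03 replicate 1 stood well above all other libraries of the study. In KO LeuD mice the quotient was -1.24, 0.72 and 1.30 at CT03 and 0.79, -0.07 and -2.49 at CT15, with overlap. The lowest value at each of these times came from the library high in acinar transcripts.

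**Figure D5:**
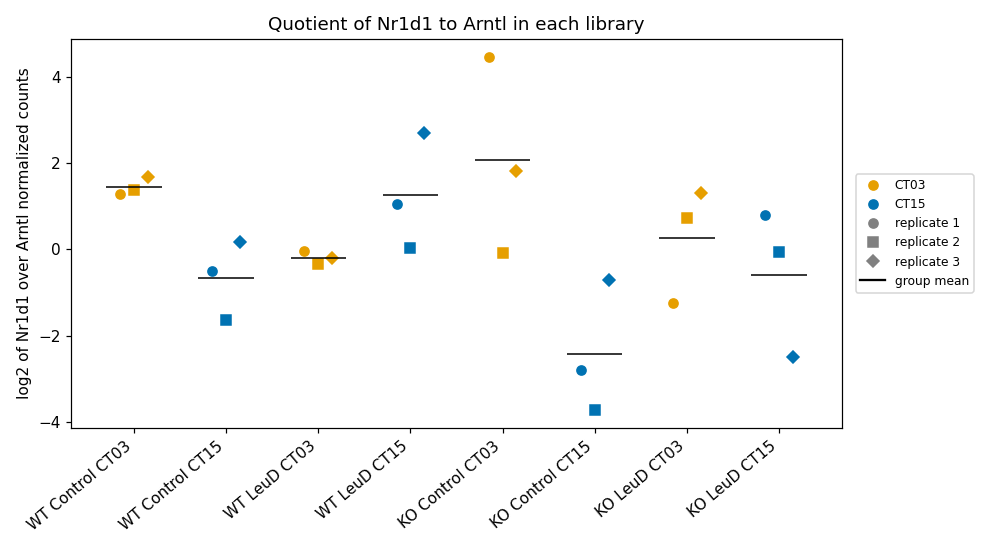
Log2 quotient of Nr1d1 to Arntl normalized counts in each library, by group, with a line at the group mean. WT Control is higher at CT03 than at CT15, WT LeuD is lower at CT03, and KO Control CT03 runs from -0.08 to 4.47.

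The repressors that act on BMAL1 and its partners ran against the activators. Of the 8 in the list, 7 were higher at CT15 over the 4 conditions and none lower, while 25.1% of all genes passed. The median was 2.03 against 0.01 for all genes. Per2 rose by 2.90 ± 0.17 (adjusted p = 1.3e-09), Ciart, which blocks BMAL1 with its partner, by 3.41 ± 0.28 (adjusted p = 9.04e-08), and Per3 by 3.55 ± 0.32 (adjusted p = 2.24e-07). By condition, 6 of 8 were higher in WT Control (median 1.40, with 1.42% of all genes called), 7 in WT LeuD (2.69, 9.61%), 4 in KO LeuD (2.52, 0.805%) and none in KO Control (1.82, 0.0407%). The KO Control median lay above that of WT Control. Cry1, which carries both E-box and ROR control, was an exception in WT LeuD mice, with 983.3, 1424 and 1006 at CT03 and 1205, 1531 and 1010 at CT15 (0.13 ± 0.19, adjusted p = 0.707). It rose in WT Control from 487.1, 479.7 and 668.9 to 1193, 1455 and 1234 (1.26 ± 0.15, adjusted p = 0.018).

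Of 6 other genes that the BMAL1 pair switches on through E-boxes, all were higher at CT15 over the 4 conditions (median 1.96). Of all genes, 25.1% passed there. Nampt, an enzyme of NAD synthesis, rose by 1.63 ± 0.07 (adjusted p = 2.89e-12). Usp2, a ubiquitin protease, rose by 3.88 ± 0.25 (adjusted p = 2.07e-09), and Wee1, a cell cycle kinase, by 2.73 ± 0.23 (adjusted p = 1.11e-07). All 6 passed in WT LeuD (median 3.38), 5 in KO LeuD (2.75), 4 in WT Control (1.41) and none in KO Control (1.04), beside the same shares of all genes. Dbp, a transcription factor of clock output, stood at different CT03 levels on the 2 diets. WT LeuD mice had 38.0, 50.4 and 38.6 at CT03 and 1749, 972.4 and 2068 at CT15 (5.15 ± 0.27, adjusted p = 4.57e-05). WT Control mice had 678.4, 110.5 and 556.6 at CT03 and 705.5, 357.5 and 940.2 at CT15 (0.83 ± 0.66, adjusted p = 0.562). The difference between these time effects over both genotypes, 4.21 ± 1.02, did not pass (adjusted p = 0.253). KO Control CT03 replicate 1, with the highest Nr1d1 and Nr1d2, also had the highest Dbp, at 3605 against 56.7 and 590.9 in its mates.

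Genes known to be under REV-ERB or ROR control did not move as a block. Over the 4 conditions, where 25.1% of all genes passed, 2 of 9 were higher at CT15, Cry1 among them. Lower were 2, Elovl3, a fatty acid elongase, and Insig2, which holds back cholesterol synthesis. The median of the 9 was 0.14. Nfil3, a repressor whose window holds the same TAGGTCA as that of Arntl, followed Arntl in WT LeuD mice. It fell there from 2814, 2460 and 2300 at CT03 to 853.6, 1011 and 830.7 at CT15 (-1.49 ± 0.12, adjusted p = 0.000323). In WT Control mice it was level, at 1194, 1336 and 1481 against 1235, 1211 and 1567 (0.00 ± 0.13, adjusted p = 0.995). Like Arntl, it was higher on LeuD than on Control in WT mice at CT03 (0.92 ± 0.11, adjusted p = 0.00959).

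For diet in WT mice at CT03, where 2.24% of all genes passed, several of these genes were lower on LeuD. Of the 8 repressors 3 were lower on LeuD (Per2, Bhlhe40 and Bhlhe41) and 1 higher (Cry1), and of the 6 other E-box genes 2 were lower (Dbp and Tef). Per2 was lower by -0.98 ± 0.15 (adjusted p = 0.0223) and Dbp by -3.02 ± 0.59 (adjusted p = 0.041). Of the 9 genes under REV-ERB or ROR control 2 were higher (Nfil3 and Cry1) and none lower. Bhlhe40, Bhlhe41, Tef and, above, Elovl3 were named after their values were seen.

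Genes of the proteins that act with these factors were read over the 4 conditions against the 25.1% of all genes that passed there. Of the 6 genes of the REV-ERB corepressor complex 1 was lower at CT15 over the 4 conditions, Tbl1x, by -0.15 ± 0.05 (adjusted p = 0.0389). None passed for time in any single condition. Of 10 kinases, ubiquitin ligases and proteases of clock proteins 1 was higher (Usp2) and 4 lower, of which Fbxl21, part of a ligase for CRY proteins, differed by -0.65 ± 0.19 (adjusted p = 0.0167). Of 6 measured partners and paralogs 3 were higher, Per3 and Arnt among them. Arnt, a dimer partner of the same protein family as BMAL1, differed by 0.28 ± 0.06 (adjusted p = 0.00317).

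Over the 24 libraries, 11244 named genes were ranked by Pearson correlation with each of the 6 on the log2 scale. The correlations mix time, diet and genotype and are given as a description. Npas2 was most like Clpx (0.94), B3gat3 (0.93) and Dpp9 (0.93) and most opposed to Wee1 (-0.94). Arntl was most like Lrfn3 (0.87) and Chka (0.85) and most opposed to Dbp (-0.90). Wee1 and Dbp are both in the list of E-box genes above. Clock was most like Itsn1 (0.87), Tex2 (0.86) and Zswim8 (0.84) and most opposed to Psmb10 (-0.86).

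Nr1d1 was most like Tsc22d4 (0.88), Ift46 (0.86) and Agbl5 (0.83) and most opposed to the chaperone gene Hsp90aa1 (-0.85). Nr1d2 had looser company, with Pcgf5 (0.77), Dbp (0.72) and Narf (0.70), and was most opposed to Ppard (-0.85), the gene of a fatty acid receptor. Rora was most like Med13l (0.84), Phactr4 (0.83) and Sp3 (0.81) and most opposed to Psmb8 (-0.82). Psmb8 and Psmb10, opposed to Rora and Clock, both encode subunits of the immunoproteasome.

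Among the 6 themselves, the activators were most alike, with 0.82 for Arntl and Npas2, 0.77 for Clock and Npas2 and 0.74 for Arntl and Clock. The paralogs Nr1d1 and Nr1d2 stood at 0.33. Arntl was opposed to Nr1d2 (-0.69) and nearly unrelated to Nr1d1 (0.10) over these 2 times of day. Rora was at 0.36 to 0.42 with the activators and at -0.10 and -0.11 with the REV-ERB genes.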

How the data were processed

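RNA of 24 livers was sequenced after oligo(dT) enrichment, per the labels' protocols. The submitters' processing notes name build GRCm39 and the tools STAR 2.5.2b, Trimmomatic 0.36, Subread 1.5.2 with featureCounts, DESeq and DESeq2, without settings, annotation or strand. The authors deposited, for each library, a signal made of gene counts over a size factor that differs by table, beside a log2 fold change, p-value and adjusted p per the file headers. Low values were whole multiples of 1 step, and 100% came out as whole reads (tolerance 0.01). Where 2 tables hold the same library (48 cases), recovered reads differed in 0 genes. Replicates were mice of a group with separate labels; the chi-square between mates was 34.1 or more per degree of freedom.

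Tests used limma 3.58.1 (R 4.3.3, intensity trend, two-sided) on log2(normalized count + 1), within each deposited table of 6 libraries, with Benjamini-Hochberg adjustment over all its genes. Adjusted p under 0.05 counted as passing (called). Genotype on LeuD, interactions and means over conditions used recovered reads on 1 scale (median-ratio size factors, 14474 genes). Levels are on that scale. Alternatives used a pseudocount of 4, a mean of at least 10, edgeR 4.0.16, DESeq2 1.42.0, a replicate block, a fit of all 24 libraries, and libraries left out. Replicate numbers did not pair the mice. The code was tested on simulated data. Named genes are the 6, Thra, up to 3 per list by the p of the mean time effect, and always Per2, Cry1, Dbp and Nfil3. For likeness they are the 3 most alike and the 1 most opposed. Some genes that this rule names are not reported here. The 6 genes and the lists were chosen with earlier results of these data known.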

Additional observations from a re-analysis of the deposited data

How the results depend on the processing

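No call of the 6 genes changed side under a pseudocount of 4, a mean of at least 10 or edgeR. With DESeq2 the number of the 6 called was 2 against 1 for time in WT Control, 1 against 0 in KO Control, 3 against 1 in KO LeuD, 3 against 2 for diet in WT at CT03, 1 against 0 for diet in KO at CT15, 2 against 0 for time by diet in WT and 1 against 0 for time by diet over both genotypes. Over all genes DESeq2 called 920, 357, 845, 961, 698 and 72 in that order, up to time by diet in WT. From 1 fit of all 24 libraries the number of the 6 called was 0 against 1 for time in WT Control and 3 against 5 in WT LeuD. It was 1 against 0 for time in KO Control and 2 against 1 in KO LeuD. For diet it was 0 against 2 in WT at CT03 and 2 against 0 in KO at CT15. That fit called 158, 720, 578, 1176, 24 and 1219 of all 14474 genes, in the same order. Without the libraries high in acinar transcripts the number of the 6 called was 0 against 1 for time in KO LeuD and 4 against 5 in WT LeuD. Of all genes 9 and 970 were called there. With single libraries left out the number of the 6 called ran from 0 to 2 for time in WT Control and 3 to 5 in WT LeuD. It ran from 0 to 2 for time in KO LeuD. For genotype on LeuD at CT03, time by diet in WT and diet by genotype at CT03 it ran from 0 to 1. Of all 126 differences of the 6 genes, 29 changed sign when some single library was left out, none of them called (lowest adjusted p = 0.662). Among those printed these were Nr1d2 for time in WT Control (-0.33 to 0.32) and Arntl (-0.34 to 0.81) and Clock (-0.06 to 0.46) for time in KO Control. So were Rora for time over the 4 conditions (-0.06 to 0.03) and Arntl for diet by genotype at CT03 (-0.84 to 0.31). The cause was not tested, apart from the fewer mice of the last settings. Of 1347 alternatives for 77 single values, 1298 kept direction and side, 19 lost and 19 gained a call and 11 reversed.

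The replicate block made Rora pass for diet in WT at CT03 (adjusted p = 0.0451) and changed no other call of the 6. Deviations of same-numbered mice correlated at -0.37 to 0.38 over the 12 pairs of groups. The count over all genes was less steady. For time it was 212 in WT Control (42 with the block, 920 with DESeq2, 4 to 133 with libraries left out), 1424 in WT LeuD (747, 2038, 561 to 1176), 6 in KO Control (0, 357, 0 to 5) and 120 in KO LeuD (69, 845, 9 to 605). For diet in WT at CT03 it was 330 (304, 961, 75 to 443). For diet in KO it was 0 at CT03 (0, 520, 0 to 1234) and 3 at CT15 (0, 698, 0 to 203). Depth limits Npas2 at CT15 on LeuD, where 20 and 27 reads stand behind a group.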
